A study of Mus musculus with 12 samples.

Results

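The 10 genes described here encode small inhibitors of proteases: the stefins Stfa1, Stfa2, Stfa2l1, Stfa3 and Cstb, the secreted cystatin Cst3, the WAP domain proteins Slpi and Wfdc17, and Ctla2a and Ctla2b. They were taken by name, as the rows of the deposited count table whose Ensembl identifier maps to one of these symbols, and made up 10 of its 57010 genes. All 10 were found. Of these, 7 passed the filter on low counts and were tested, while Stfa1, Stfa2 and Stfa2l1 did not pass it. The set was chosen by its measured response: the list was drawn up with the response of these macrophages to tumour cells (ID8 against naive counts) already known. The differences between challenged and naive cells are therefore given as a description, with no p-value. Where such a difference is said to be called, this is a description as well. The comparisons between genotypes and the interaction were tested.

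Stefins and cystatins belong to 1 superfamily of inhibitors that wedge a conserved loop into the active site of papain-like cysteine proteases, the cathepsins that degrade proteins in lysosomes. Stefins lack a signal peptide and act in the cytosol, where they catch cathepsins that leak from lysosomes, whereas cystatin C, the product of Cst3, is secreted. WAP domain proteins such as SLPI inhibit serine proteases of the kind that neutrophils and mast cells release, and macrophages secrete SLPI as a brake on tissue damage and on inflammatory signalling. CTLA2 proteins resemble the propeptide that keeps cathepsin L inactive.

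The libraries came from large peritoneal macrophages, resident phagocytes of the mouse body cavity, sorted as F4/80-high MHCII-low cells from female mice. The mice were wild type (WT) or lacked the phosphatidylserine receptor Tim4, encoded by Timd4 (Tim4KO), and each genotype was taken naive or 24 h after an intraperitoneal injection, given at 8 weeks of age, of ID8 ovarian tumour cells carrying ZsGreen and OVA (the line named ID8ZGO). The naive groups are written WT naive and Tim4KO naive and the injected ones WT ID8 and Tim4KO ID8, making 4 groups of 3 libraries, 12 in all, numbered as in the labels. Only ZsGreen+ cells were sorted from injected mice while naive cells were not sorted on ZsGreen, so challenge and uptake of tumour material cannot be told apart. The labels do not say whether the Tim4 deletion was restricted to a cell type, the age of the naive mice and what they were given, or whether a library came from 1 mouse or from pooled mice. The p-values therefore measure the spread between these libraries, which may be technical in part.

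Total counts ran from 7358559 to 23170244 per library, and 3 counts corresponded to 0.137 to 0.398 CPM (counts scaled to the library total). Levels below are CPM scaled by TMM factors, which ran from 0.896 to 1.09. Timd4 was at 881.7 to 1481 CPM in the WT libraries and at 1.38 to 7.68 CPM in the Tim4KO libraries, as the labels state. All 9 markers of large peritoneal macrophages were detected in every group, with a summed level of 51765 to 59245 CPM in naive and 24082 to 29242 CPM in ID8 libraries. Most of that sum was Lyz2 (40264 to 47284 CPM in naive and 10689 to 14976 CPM in ID8 libraries). Without it the other 8 markers summed to 9655 to 13027 CPM in naive and 13350 to 15216 CPM in ID8 libraries. Of the 9, 4 were called higher and 2 lower in WT ID8 than in WT naive, and 3 higher and 2 lower in Tim4KO. Reads in 1947 olfactory and vomeronasal receptor genes, those with a mean of at most 1 CPM in these libraries, were taken as background. They summed to 267 to 830.5 CPM in naive and 6.84 to 360.6 CPM in ID8 libraries. In WT this background was lower in ID8 (6.84 to 253.5 CPM) than in naive libraries (324.6 to 830.5 CPM). In Tim4KO the ranges overlapped, at 42.4 to 360.6 CPM in ID8 and 267 to 447.5 CPM in naive libraries.

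Sequences are shown first for the stefins, because 1 of the type A stefins (Stfa3) was abundant in ID8 cells and the others on chromosome 16 were not, and because reads can be assigned to Stfa3 only where its letters differ from theirs. Each line holds 60 coding bases, read 5′ to 3′ on the coding strand from GENCODE vM21 transcripts (GRCm38), around the codons of the conserved inhibitory loop. Capitals mark bases that differ from Stfa3. The Stfa3 stretch lies in exons 2 and 3, within chr16:36450729-36452204 on the minus strand, a span that includes the intron between them.
Stfa3: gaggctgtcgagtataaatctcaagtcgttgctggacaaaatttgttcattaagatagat
Stfa1: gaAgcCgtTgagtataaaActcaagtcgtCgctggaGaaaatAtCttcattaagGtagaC
Stfa2: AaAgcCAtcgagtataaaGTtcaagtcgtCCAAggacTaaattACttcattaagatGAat
Stfa2l1: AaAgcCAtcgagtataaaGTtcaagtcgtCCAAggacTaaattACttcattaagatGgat
Cstb: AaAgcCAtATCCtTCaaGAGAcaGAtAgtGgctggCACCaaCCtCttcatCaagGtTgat
Stfa1 differed from Stfa3 at 10 of these 60 bases, Stfa2 at 15, Stfa2l1 at 14 and Cstb at 28. Over the whole coding sequence, Stfa3 shared 82.3% of aligned bases with Stfa1, 81.1% with Stfa2, 81.7% with Stfa2l1 and 56.7% with Cstb, while Stfa2 and Stfa2l1 shared 96.5% with each other. No window of 50 bases in the Stfa3 transcript (0 of 363) also occurred in a transcript of another gene. The share of such windows was 25.4% for Stfa1, 15.9% for Stfa2 and 24.6% for Stfa2l1, and their counts are uncertain for that reason. For Cstb, Cst3, Slpi and Wfdc17 it was 0.

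A second set shows the 250 bases before the start site, from RefSeq on GRCm38.p6, for 2 pairs of related genes on the same chromosome, of which 1 gene was more abundant in ID8 than in naive cells and the other was not. Stfa1 and Stfa2 lie between Stfa3 and Stfa2l1. These are Ctla2a (chr13:60936626-60936875, minus strand) and Ctla2b (chr13:60897448-60897697, minus strand), then Stfa3 (chr16:36455393-36455642, minus strand) and Stfa2l1 (chr16:36156561-36156810, plus strand). Each runs 5′ to 3′ on the gene's own strand and ends at the base before the start site. Capitals mark matches, on either strand, to the TATA box letters TATAAA, the AP-1 letters TGANTCA, the PU.1 core GAGGAA or the C/EBP letters TTNNGNAA.
Ctla2a: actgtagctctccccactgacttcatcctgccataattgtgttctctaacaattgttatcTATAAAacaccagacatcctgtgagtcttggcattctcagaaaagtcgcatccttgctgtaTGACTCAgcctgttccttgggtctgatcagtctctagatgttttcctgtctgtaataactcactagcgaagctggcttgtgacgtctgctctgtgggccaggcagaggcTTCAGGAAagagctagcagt
Ctla2b: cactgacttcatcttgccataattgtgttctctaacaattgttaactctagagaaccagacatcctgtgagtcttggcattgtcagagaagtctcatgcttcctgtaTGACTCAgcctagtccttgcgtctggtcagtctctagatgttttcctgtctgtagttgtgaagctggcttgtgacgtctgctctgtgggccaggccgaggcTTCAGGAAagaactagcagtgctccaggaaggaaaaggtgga
Stfa3: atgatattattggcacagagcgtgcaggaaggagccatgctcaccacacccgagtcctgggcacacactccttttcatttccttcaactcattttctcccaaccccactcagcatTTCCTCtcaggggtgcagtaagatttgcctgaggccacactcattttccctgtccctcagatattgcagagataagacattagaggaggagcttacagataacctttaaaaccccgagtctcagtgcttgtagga
Stfa2l1: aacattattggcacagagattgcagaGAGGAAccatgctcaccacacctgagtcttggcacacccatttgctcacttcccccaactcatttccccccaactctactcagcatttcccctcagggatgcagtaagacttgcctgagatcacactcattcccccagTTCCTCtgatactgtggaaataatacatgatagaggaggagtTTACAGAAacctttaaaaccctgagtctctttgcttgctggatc
The pair Ctla2a and Ctla2b shared 91.2% of aligned bases in this window, and Stfa3 and Stfa2l1 shared 82.5%. An AP-1 match stood in both Ctla2 windows, at -129 in Ctla2a and at -143 in Ctla2b, as did a C/EBP match, at -20 and -42. The TATAAA letters stood only in Ctla2a, at -190. The Stfa3 window held 1 PU.1 match, at -135, while the Stfa2l1 window held 2 PU.1 matches, at -224 and -86, and a C/EBP match at -44. Among the 32851 promoter windows of this length, 12.4% held the TATA box letters, 6.75% the AP-1 letters, 23.3% the PU.1 core and 36.8% the C/EBP letters. Matches of these letters are descriptions of the sequence only, and RefSeq windows were found for 9 of the 10 genes.

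Among the type A stefins, Stfa3 (ENSMUSG00000054905; GRCm38 chr16:36450537-36455392) was close to undetected in naive macrophages and readily detected in every ID8 library. Its counts were 2, 4 and 6 in WT naive libraries 1 to 3 and 10, 5 and 6 in Tim4KO naive. They were 207, 526 and 1224 in WT ID8, with 294, 277 and 389 in Tim4KO ID8. In CPM these were 23.7, 45.1 and 55.8 in WT ID8, with 22.6, 25.4 and 22.3 in Tim4KO ID8, against 0.21 to 0.82 in the naive libraries. ID8 and naive libraries did not overlap in either genotype, and WT ID8 varied far more between libraries than Tim4KO ID8 (41.6 ± 16.3 and 23.4 ± 1.74 CPM, SD, n = 3). Such separation was common. Here and for the genes below, 44.4% of all tested genes did not overlap between ID8 and naive in WT, and 41.7% in Tim4KO. The fitted log2 difference between ID8 and naive was 7.03 (SE 0.39, 131-fold) in WT and 5.33 (SE 0.36, 40.3-fold) in Tim4KO. Both folds rest on 10 or fewer reads per naive library.

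The other type A stefins stayed near the detection limit. Stfa1 (ENSMUSG00000071562; GRCm38 chr16:36276951-36285373) had 0 to 2 counts in every naive library, 2, 6 and 38 in WT ID8, with 1, 4 and 2 in Tim4KO ID8. Only WT ID8 library 3, the same library in which Stfa3 was highest, held more than 6 reads of Stfa1. Stfa2 (ENSMUSG00000022902; GRCm38 chr16:36403992-36408457) had 0 to 4 counts in all 12 libraries, and Stfa2l1 (ENSMUSG00000059657; GRCm38 chr16:36156811-36161953) had 0 to 6. For Stfa2 and Stfa2l1 no difference between groups was detectable at this depth. Per kilobase of exon, Stfa3 in WT ID8 stood at 101 ± 39.6 CPM (SD, n = 3), and Stfa1 at 1.16 ± 1.12.

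Type A stefins are also made by neutrophils, so the neutrophil markers are given beside these values. The 12 markers summed to 177 to 258 CPM in naive and 72.4 to 116 CPM in ID8 libraries, mostly from Csf3r, which macrophages express as well. Of the 6 that were tested, S100a8, S100a9 and Retnlg were called higher in WT ID8 than in WT naive (log2 differences 1.69, 3.40 and 3.20), S100a8 and Retnlg in Tim4KO as well (1.37 and 3.27), and Csf3r was called lower in both. S100a9 stood at 3.90, 2.06 and 0.456 CPM in WT ID8 libraries 1 to 3, and at 2.07, 1.56 and 0.459 CPM in those of Tim4KO. Retnlg stood at 3.90, 0.601 and 1.82 CPM and at 11.9, 9.09 and 4.99 CPM, and Cxcr2, not called, at 3.33, 1.03 and 0.182 CPM and at 1.07, 1.84 and 0.517 CPM. Some neutrophil genes were thus higher in ID8 than in naive libraries, as Stfa3 was, at levels of at most 24.8 CPM. Within WT ID8 the order of libraries differed. S100a9, Cxcr2 and the sum of the 12 markers (72.4 CPM) were lowest in library 3, where Stfa3 was highest, and Retnlg was lowest in library 2. Between genotypes in ID8 cells none of the 6 was called by edgeR, with log2 differences from -0.62 (S100a9) to 2.08 (Retnlg). Of the 6 that were too low to test, Ly6g held at most 4 reads in any library, Ngp 4, Camp 5, Mpo 8, Ltf 9 and Elane 14. The part of other cells in the Stfa3 reads was not tested, and in bulk libraries fewer cells of a type and less RNA per cell cannot be told apart.

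Stefin B (Cstb; ENSMUSG00000005054, GRCm38 chr10:78425669-78427622), the broadly expressed cytosolic stefin, was well detected throughout and also higher in ID8 cells. Its levels were 86.2, 89.5 and 87.6 CPM in WT naive and 75.5, 61.4 and 63.7 CPM in Tim4KO naive. They were 214.9, 257.9 and 217.6 CPM in WT ID8 and 153.1, 149.9 and 148.6 CPM in Tim4KO ID8. No library of any group fell within the range of another group, and the 4 groups stood in the order Tim4KO naive, WT naive, Tim4KO ID8, WT ID8. The log2 difference between ID8 and naive was 1.38 (SE 0.12, 2.61-fold) in WT and 1.17 (SE 0.12, 2.25-fold) in Tim4KO.

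Cstb was the gene of this set with the lowest p-value between genotypes. In naive cells the log2 difference of Tim4KO against WT was -0.39 (SE 0.12, 95% interval -0.67 to -0.12), and it did not pass the threshold of 0.05 (edgeR quasi-likelihood F test, unadjusted p = 0.00484, Benjamini-Hochberg adjusted p = 0.589). In ID8 cells it was -0.61 (SE 0.12, 95% interval -0.88 to -0.34), which missed the threshold as well (edgeR unadjusted p = 0.000111, adjusted p = 0.0802), with all 3 Tim4KO libraries below all 3 WT libraries. The ID8 difference did pass with DESeq2 (adjusted p = 1.7e-05), with no filter on low counts (0.0131) and with the receptor background as a covariate (0.033). It also passed without Tim4KO naive library 1 (0.0454) and without WT ID8 library 3 (0.00936), and its adjusted p ran from 1.7e-05 to 0.458 over the 20 alternative settings, with the same direction in each.

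The secreted cystatin Cst3 (ENSMUSG00000027447; GRCm38 chr2:148871722-148875692), a strongly expressed gene of tissue macrophages, went the other way. It stood at 1846, 2112 and 2023 CPM in WT naive and at 2112, 1736 and 1628 CPM in Tim4KO naive. After the challenge it stood at 850.8, 878 and 900.2 CPM in WT and at 955.9, 833.6 and 936 CPM in Tim4KO. All 6 ID8 libraries lay below all 6 naive libraries, and the genotypes overlapped in both conditions. Within 1 genotype, 20.8% of all tested genes were lower in ID8 without overlap in WT, and 18% in Tim4KO. The log2 difference between ID8 and naive was -1.19 (SE 0.13, a ratio of 0.438) in WT and -1.01 (SE 0.13, a ratio of 0.497) in Tim4KO. Between genotypes it was -0.13 in naive cells (95% interval -0.42 to 0.16) and 0.05 in ID8 cells (95% interval -0.24 to 0.34), and neither passed (edgeR adjusted p = 0.916 and 0.887). Among the macrophage markers Lyz2 was lower in ID8 cells too (-1.84 in WT and -1.67 in Tim4KO), whereas Cd5l was higher (1.03 and 1.65), as was Itgam (0.72 and 0.71).

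**Figure D1:**
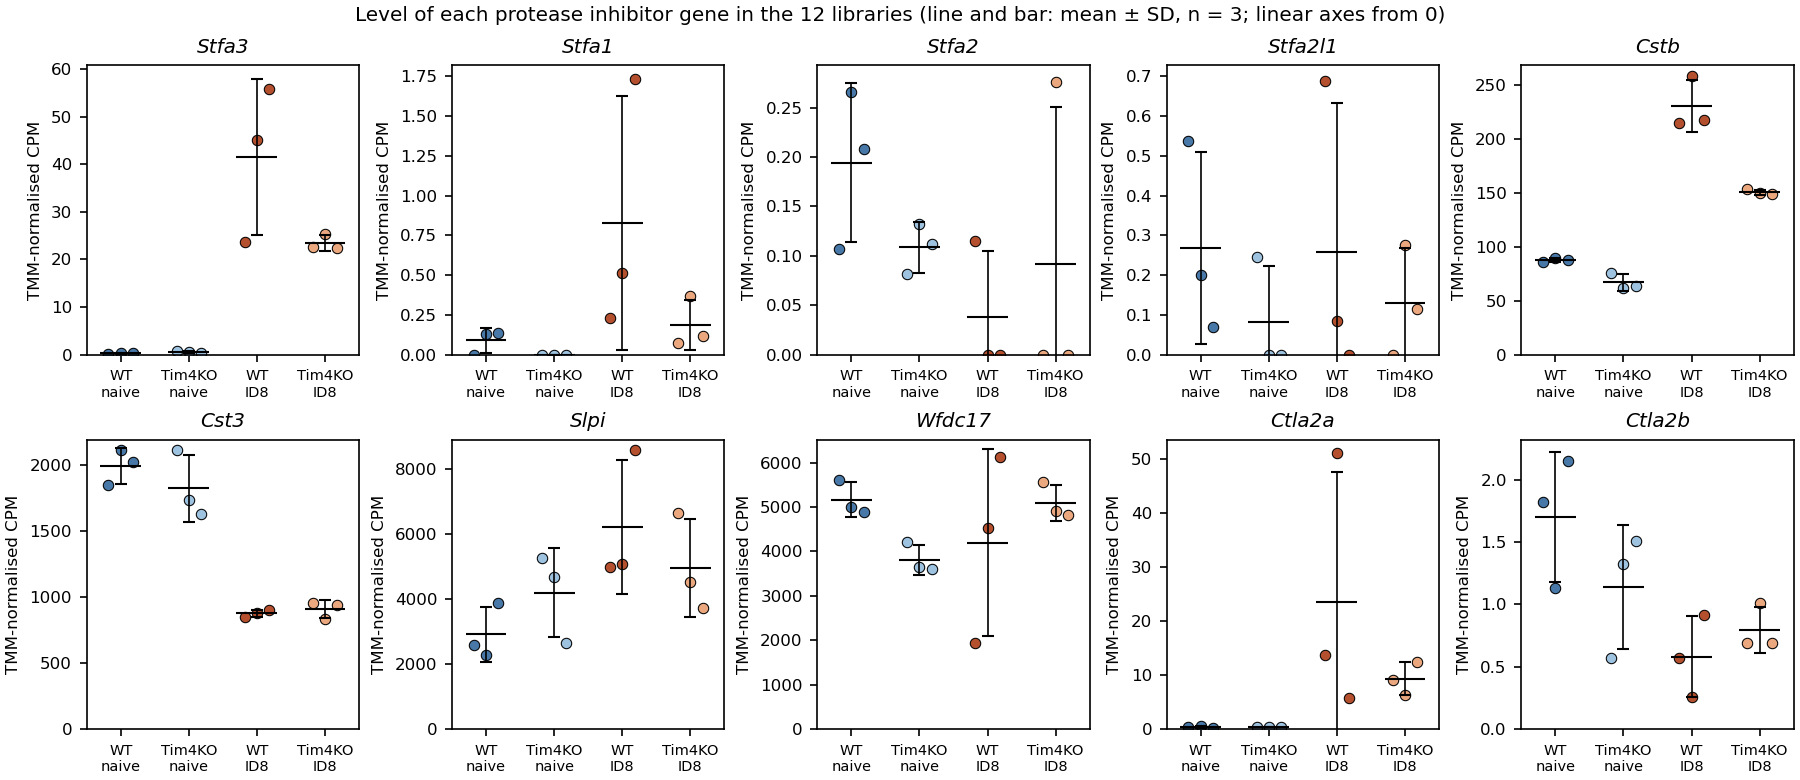
Level of each of the 10 genes in each library (TMM-scaled CPM, linear axes that start at 0 and differ in range) by group, with 1 point per library and mean ± SD (n = 3). Stfa3 and Ctla2a sit below 1 CPM in all naive libraries and above 5 CPM in all ID8 libraries, Cst3 is lower in every ID8 library than in any naive one, and Wfdc17 runs from 1947 to 6123 CPM within WT ID8.

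The WAP domain genes were the most abundant of the set. Slpi (ENSMUSG00000017002; GRCm38 chr2:164354070-164389095), which encodes the secretory leukocyte protease inhibitor, varied widely between libraries of the same group. It stood at 2588, 2289 and 3884 CPM in WT naive and at 5264, 4679 and 2645 CPM in Tim4KO naive. In ID8 libraries it stood at 4976, 5068 and 8589 CPM in WT and at 6649, 4520 and 3739 CPM in Tim4KO. WT ID8 lay wholly above WT naive, whereas the Tim4KO groups overlapped. The log2 difference between ID8 and naive was 1.08 (SE 0.32, 2.12-fold) in WT and 0.24 (SE 0.32) in Tim4KO. The WT value was 0.84 with upper-quartile scaling, 1.20 with no filter on low counts and 0.46 with the receptor background as a covariate. It was 1.01 without WT naive library 1, 0.97 without WT naive library 2 and 0.80 without WT ID8 library 3. Between genotypes Slpi did not differ beyond its spread in naive (0.52, SE 0.32, edgeR adjusted p = 0.831) or ID8 cells (-0.32, SE 0.32, edgeR adjusted p = 0.705).

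Wfdc17 (ENSMUSG00000069792; GRCm38 chr11:83703991-83706268) encodes a small secreted WAP protein found in activated macrophages and microglia. It stood at 5609, 5006 and 4885 CPM in WT naive and at 4204, 3647 and 3597 CPM in Tim4KO naive. In WT ID8 it stood at 1947, 4519 and 6123 CPM, and in Tim4KO ID8 at 5560, 4903 and 4822 CPM. WT ID8 reached both below and above all libraries of the other groups, and its library 1 was the lowest of all 12. The log2 difference between ID8 and naive was -0.31 (SE 0.29) in WT and 0.41 (SE 0.29) in Tim4KO. Without WT ID8 library 1 the WT value turned to 0.11, and with the receptor background as a covariate it was -1.02. Tim4KO naive lay below WT naive with no overlap, but the log2 difference of -0.44 (SE 0.29, 95% interval -1.10 to 0.22) did not pass (edgeR adjusted p = 0.84). In ID8 cells it was 0.28 (SE 0.29, edgeR adjusted p = 0.712).

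Ctla2a (ENSMUSG00000044258; GRCm38 chr13:60934155-60936625) resembled Stfa3 in being almost silent in naive cells. Its counts were 3, 8 and 3 in WT naive and 4, 3 and 7 in Tim4KO naive, against 120, 594 and 126 in WT ID8, with 118, 69 and 216 in Tim4KO ID8. In CPM the ID8 libraries stood at 13.8, 51 and 5.74 in WT and at 9.06, 6.34 and 12.4 in Tim4KO. All ID8 libraries lay above all naive ones, and WT ID8 library 2 was several times above the other ID8 libraries. The log2 difference between ID8 and naive was 5.98 (SE 0.90, 63.2-fold) in WT and 4.61 (SE 0.90, 24.4-fold) in Tim4KO, on at most 8 reads per naive library. Without WT ID8 library 2 the WT value was 4.72. With limma voom the values were 5.26 in WT and 4.50 in Tim4KO, and without Tim4KO naive library 3 the Tim4KO value was 4.69. The genotypes overlapped, with a log2 difference in ID8 cells of -1.33 (SE 0.64, 95% interval -2.80 to 0.15, edgeR adjusted p = 0.435).

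Its neighbour Ctla2b (ENSMUSG00000074874; GRCm38 chr13:60895350-60897447), whose coding bases were 96.2% identical to Ctla2a, was not higher in ID8 cells. It had 17, 17 and 31 counts in WT naive and 7, 10 and 27 in Tim4KO naive. After the challenge it had 5, 3 and 20 in WT and 9, 11 and 12 in Tim4KO. In CPM the naive libraries ran from 1.13 to 2.15 in WT and from 0.57 to 1.51 in Tim4KO, and the ID8 libraries from 0.26 to 0.91 in WT and from 0.69 to 1.01 in Tim4KO. The log2 difference between ID8 and naive was -1.48 (SE 0.57) in WT, where the groups did not overlap, and -0.52 (SE 0.57) in Tim4KO. The WT value was -1.73 with upper-quartile scaling, -1.53 with DESeq2 and -2.04 without WT ID8 library 3. Of the 50-base windows of the Ctla2b transcript, 86.1% also occurred in transcripts of other genes, 84.6% in those of Gm49391 and 11.9% in Ctla2a. For Ctla2a the share was 30.1%, with 24.1% in Gm49391. The gene model Gm49391 overlaps the exons of Ctla2b by 1035 bp and those of Ctla2a by 343 bp on the same strand, and it had 0 counts in all 12 libraries. The counts of both genes, and those of Ctla2b above all, are therefore uncertain.

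Of the 7 tested genes, 4 were called higher in WT ID8 than in WT naive cells (Stfa3, Cstb, Slpi and Ctla2a) and 1 lower (Cst3), where 19.5% of all 15943 tested genes were called higher and 12.3% lower. In Tim4KO, 3 were called higher (Stfa3, Cstb and Ctla2a) and 1 lower (Cst3), where 11.5% of all genes were called higher and 5.06% lower. The median log2 difference of the 7 genes was 1.08 in WT and 0.41 in Tim4KO, beside -0.04 and -0.05 over all tested genes. Stfa3 and Ctla2a, with at most 10 and 8 reads in any naive library, passed the filter through their ID8 libraries. Since this response was known when the genes were listed, the counts and medians describe the list and are read no further. Over the alternative settings the counts came to 4 to 6 in WT and 3 to 5 in Tim4KO. Of the 7, Slpi, Wfdc17, Ctla2a and Ctla2b entered or left them. With no filter on low counts Stfa1, which is not among the 7, entered the WT count.

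**Figure D2:**
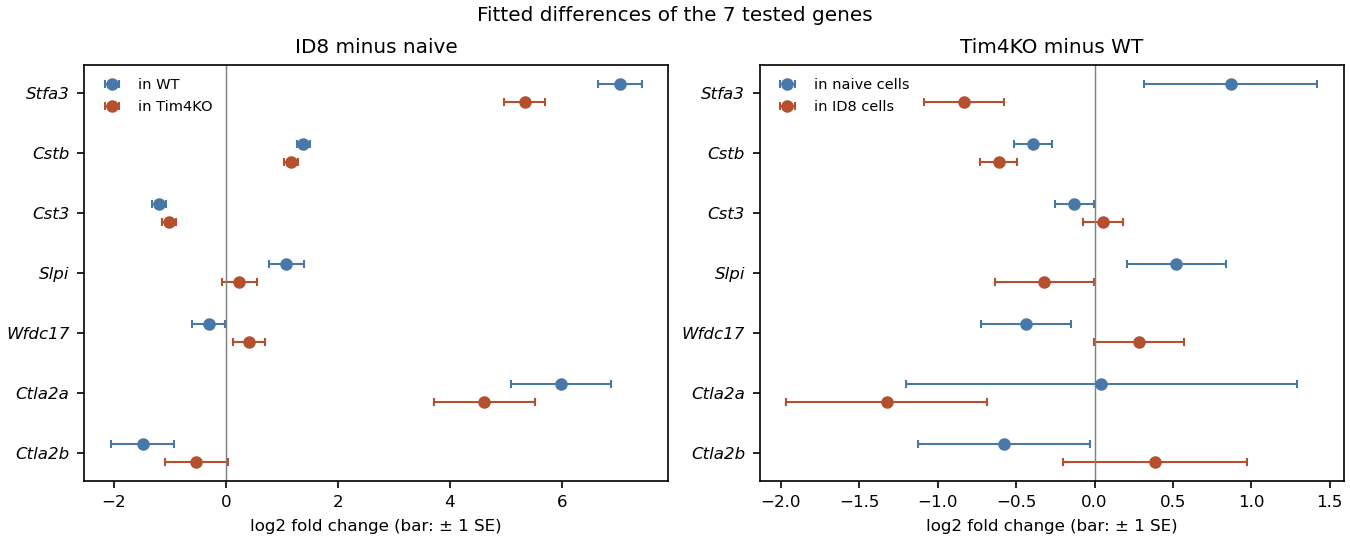
Log2 fold change of the 7 tested genes with bars of 1 SE, from edgeR fitted to all 12 libraries, for ID8 minus naive (left) and Tim4KO minus WT (right), on axes of different range. Challenge differences of Stfa3 (7.03 in WT, 5.33 in Tim4KO) and Ctla2a (5.98 and 4.61) stand far from 0, while the genotype differences lie between -1.33 and 0.87.

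Whether Tim4 made a difference was tested in 3 ways, and no gene of the set passed in any of them. In naive cells 0 of 7 genes were called between genotypes, where 0.0439% of all tested genes were, and 1 (Cstb) had an unadjusted p under 0.05. In ID8 cells 0 of 7 were called, where 0.0565% of all genes were, and 2 (Cstb and Stfa3) had an unadjusted p under 0.05. DESeq2 called 0 in naive cells and 1 in ID8 cells (Cstb), and limma voom called 0 in both. The 2 genes whose naive libraries did not overlap between genotypes (Cstb and Wfdc17) were both lower in Tim4KO, and 6.72% of all genes were lower there without overlap. In ID8 cells Cstb alone was lower without overlap, where 8.62% of all genes were.

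For Stfa3 the genotype difference in ID8 cells was -0.83 (SE 0.25, 95% interval -1.42 to -0.24, edgeR unadjusted p = 0.00543, adjusted p = 0.251). WT ID8 library 1, at 23.7 CPM, lay within the Tim4KO ID8 range of 22.3 to 25.4 CPM, and the other 2 WT libraries lay above it. Without WT ID8 library 1 the difference was -1.16 and passed (adjusted p = 0.0336), as it did with no filter on low counts (-0.90, adjusted p = 0.00315). In naive cells it was 0.87 (SE 0.55, edgeR adjusted p = 0.832), from at most 10 reads per library.

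The interaction, which is the challenge response in Tim4KO minus that in WT, was -1.70 for Stfa3 (SE 0.61, edgeR unadjusted p = 0.0141, adjusted p = 0.668), -0.84 for Slpi (SE 0.45, adjusted p = 0.68) and 0.72 for Wfdc17 (SE 0.41, adjusted p = 0.698). It was -1.37 for Ctla2a (SE 1.43), -0.22 for Cstb and 0.18 for Cst3. By edgeR 0 of the 7 genes were called and 1 (Stfa3) had an unadjusted p under 0.05, and DESeq2 and limma voom called 0. Over all 15943 genes edgeR called 0 as well (0%), with 1186 at an unadjusted p under 0.05. A different response of these genes in Tim4KO and WT cells was therefore not shown, and the SEs leave room for differences of the size seen.

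Levels were compared between genes per kilobase of exon. Wfdc17 had the highest mean of the set in every group, at 9693 ± 727 CPM per kb in WT naive and 7873 ± 3952 in WT ID8 (SD, n = 3). By this mean it ranked 3 of 15676 genes in each group. Slpi followed at 2475 ± 719 in WT naive and 5264 ± 1746 in WT ID8, where the spreads of these genes overlapped. In WT ID8 library 1 Slpi lay above Wfdc17, at 4217 against 3653 CPM per kb. Cst3 came next, at 1575 ± 107 in WT naive (rank 25) and 692 ± 19.6 in WT ID8 (rank 61). Cstb stood at 146 ± 2.79 and 382 ± 40, moving from rank 315 to rank 136. Stfa3 moved from rank 11197 in WT naive to rank 552 in WT ID8, and from 9708 to 897 in Tim4KO. Ctla2a ended lower, at 11.1 ± 11.4 CPM per kb in WT ID8 and 4.39 ± 1.44 in Tim4KO ID8. Together Slpi and Wfdc17 took 0.678% to 1.39% of all counts in a library.

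Because Cst3 and Cstb were the main cystatins of these cells, their ratio was taken within each library, a measure chosen after the levels were seen and given as a description. Cst3 CPM divided by Cstb CPM was 21.4, 23.6 and 23.1 in WT naive and 28, 28.3 and 25.5 in Tim4KO naive. It was 3.96, 3.40 and 4.14 in WT ID8, with 6.24, 5.56 and 6.30 in Tim4KO ID8. The ratio was lower in every ID8 library than in any naive one, and in both conditions the 3 Tim4KO libraries lay above the 3 WT libraries. Cstb is part of this ratio and its genotype differences did not pass in edgeR, so the ratio is not a separate result. The ratio of Slpi to Wfdc17 ran from 0.457 to 0.795 in WT naive and from 0.735 to 1.28 in Tim4KO naive libraries. After the challenge it ran from 1.12 to 2.56 in WT and from 0.775 to 1.20 in Tim4KO. Set against the summed CPM of the cathepsins and legumain, Cst3, Cstb and Stfa3 together came to 19.9% to 24.3% in WT naive and 18.5% to 22.1% in Tim4KO naive. They came to 7.92% to 9.89% in WT ID8 and 8.56% to 8.98% in Tim4KO ID8. Most of this sum was Cst3, with 1846 of 1932 CPM in WT naive library 1 and 850.8 of 1089 CPM in WT ID8 library 1. Cst3 was lower in ID8 cells, whereas Cstb and Stfa3 were higher, so the lower share does not describe these stefins. The cathepsin and legumain sum ran from 9060 to 10590 CPM in naive and from 11016 to 14920 CPM in ID8 libraries.

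**Figure D3:**
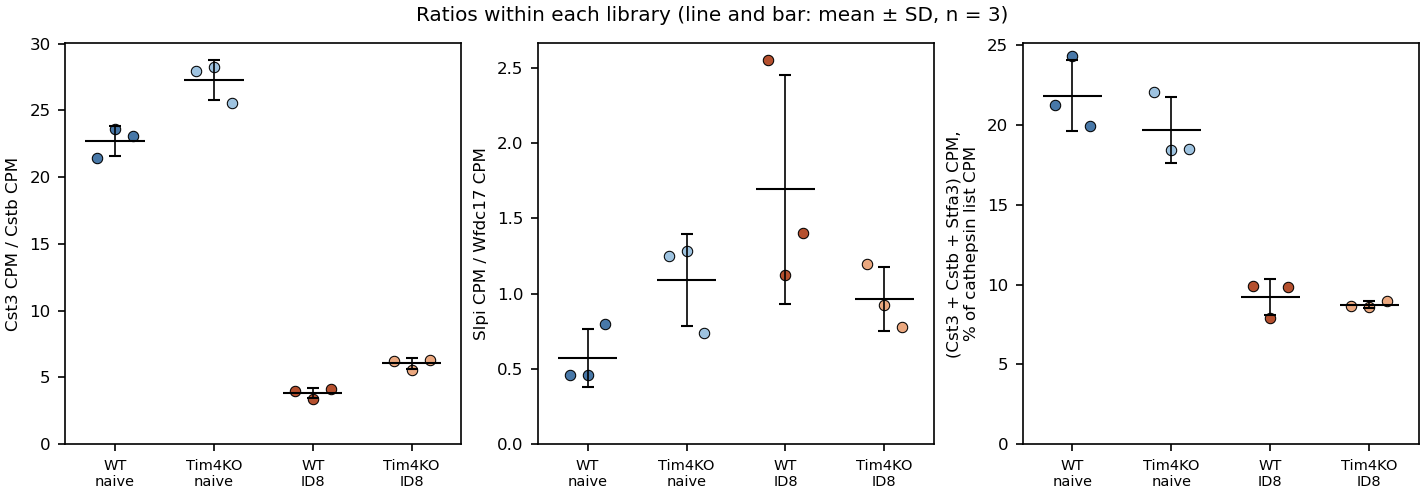
Ratios within each library by group, with mean and SD (n = 3): Cst3 to Cstb, Slpi to Wfdc17, and the sum of Cst3, Cstb and Stfa3 as a percentage of the cathepsin list, all from TMM-scaled CPM. The Cst3 to Cstb ratio sits at 21.4 to 28.3 in naive and 3.40 to 6.30 in ID8 libraries, and the Slpi to Wfdc17 ratio overlaps between most groups.

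The cysteine cathepsins, which stefins and cystatins inhibit, were listed together with legumain (11 genes), and the list moved in both directions. Of 9 tested, 4 rose and 2 fell in WT, and 3 rose and 2 fell in Tim4KO (edgeR, adjusted over all genes). Here and for the lists that follow, 19.5% of all tested genes rose and 12.3% fell in WT, and 11.5% rose and 5.06% fell in Tim4KO. Ctsz, a lysosomal carboxypeptidase, rose by 1.23 on the log2 scale (SE 0.12) in WT and by 1.06 (SE 0.12) in Tim4KO. Ctsl, the endopeptidase whose propeptide CTLA2 proteins resemble, rose by 0.98 (SE 0.13) and 0.90 (SE 0.13), and Ctsb rose by 0.51 (SE 0.14) and 0.68 (SE 0.14). Ctss, which trims the invariant chain in antigen presentation, fell by 0.52 (SE 0.14) and 0.62 (SE 0.14), and Ctsf fell by 1.85 (SE 0.27) and 1.42 (SE 0.27). The median over the 9 genes was 0.32 in WT and 0.04 in Tim4KO, beside -0.04 and -0.05 for all genes.

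The serine proteases of neutrophils and mast cells, a class that holds targets of SLPI, were few and low. Not every protease of this list need be a target of SLPI. Of 11, 4 were tested (Prtn3, Cma1, Mcpt4 and Tpsb2), and Elane and Ctsg did not pass the filter. All 4 fell in WT, where 12.3% of all genes did, and 2 fell in Tim4KO, where 5.06% of all genes did. Tpsb2, a mast cell tryptase, fell by 2.70 on the log2 scale (SE 0.44) in WT and by 1.85 (SE 0.41) in Tim4KO. Cma1, a mast cell chymase, fell by 2.33 (SE 0.45) and 2.01 (SE 0.44). The 7 mast cell markers, which include both genes, summed to 14.1 to 41.9 CPM in naive and 2.87 to 9.44 CPM in ID8 libraries, and their part in these differences was not tested.

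Serpins, which trap serine proteases by a suicide mechanism, gave 14 tested genes of 30. In WT 4 rose and 3 fell (19.5% and 12.3% of all genes), and in Tim4KO 2 rose and 1 fell (11.5% and 5.06% of all genes). Serpinb2, a serpin made by activated macrophages, rose by 1.93 on the log2 scale (SE 0.37) in WT, and its difference of 0.74 (SE 0.36) in Tim4KO did not pass. Serpinb6a, an intracellular serpin, rose by 1.18 (SE 0.15) and 0.89 (SE 0.15), and Serpinb10 fell by 1.52 (SE 0.19) and 0.89 (SE 0.18). Their median was 0.38 in WT and -0.02 in Tim4KO, beside -0.04 and -0.05 for all genes.

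Of the other WAP and Kunitz proteins 5 of 16 in the table were tested, and 2 rose and 0 fell in each genotype (19.5% of all genes rose in WT and 11.5% in Tim4KO). Tfpi, the tissue factor pathway inhibitor, rose by 0.74 (SE 0.19) in WT and 0.87 (SE 0.19) in Tim4KO. Wfdc21 had 0 to 2 counts in each naive library and 11 to 78 in each ID8 library. Of the 18 further stefins and cystatins in the table only Cst7, cystatin F, was tested, and it did not pass in either genotype (0.74, SE 0.68, and 0.34, SE 0.70). Among 10 tested broad and metalloproteinase inhibitors 3 rose and 2 fell in WT, and 3 rose and 1 fell in Tim4KO, beside 12.3% and 5.06% of all genes that fell. Timp1, an inhibitor of matrix metalloproteinases, had 0 to 5 counts in each naive library and 120 to 614 in each ID8 library. Of the 43 tested genes in these 6 lists, edgeR called 0 between genotypes in naive cells, 0 between genotypes in ID8 cells and 0 in the interaction, with 1, 11 and 5 at an unadjusted p under 0.05. Over all 15943 tested genes, 999, 1935 and 1186 had such a p in these comparisons. DESeq2 called 2 of the 43 in ID8 cells, among them Serpinb10, and 0 in the other 2 comparisons, and limma voom called 0 in all 3.

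**Figure D4:**
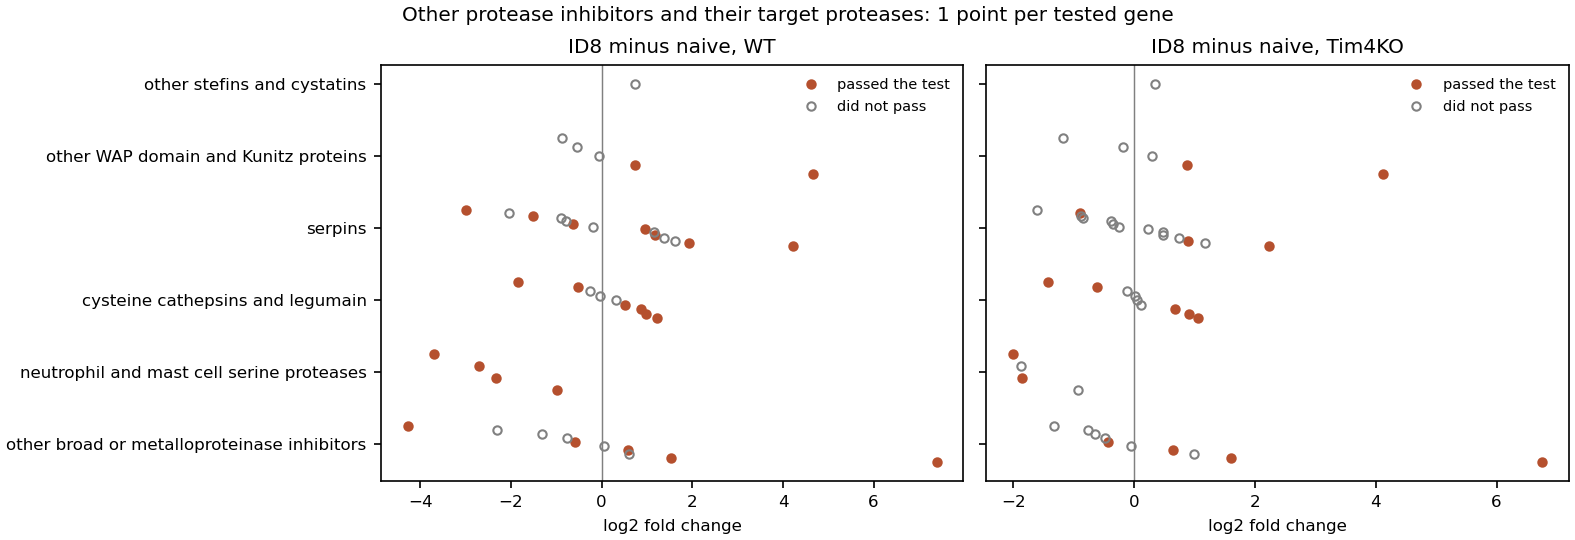
Log2 fold change between ID8 and naive cells for every tested gene of the 6 lists of related inhibitors and target proteases, with WT and Tim4KO in separate panels, x axes of different range, and filled points for genes that passed the threshold. Cathepsins and serpins lie on both sides of 0, and the tested neutrophil and mast cell proteases lie below 0 in WT.

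The genes whose level tracked the set most closely were sought over the 12 libraries, among 10228 genes (mean count 50 or more). The libraries fall into naive and ID8 clusters, so these correlations mainly order genes by the challenge and are given as a description. Closest to Stfa3 were Actg1 and Gpi1 (Pearson r = 0.993 each), F10 (0.991), Adam8 (0.988) and Anpep (0.987). Closest to Ctla2a was Timp1 (0.987), followed by Acp5 (0.986), Prep (0.98), Sars (0.979) and Anxa7 (0.978). In WT ID8, Timp1 shared the order of Ctla2a, with 24.7, 52.7 and 6.15 CPM in libraries 1 to 3 beside 13.8, 51 and 5.74 for Ctla2a. Stfa3 had another order there, with library 3 highest. For Slpi the closest genes reached lower values, with 2810006K23Rik at 0.895, Pias4 at 0.879, Tbc1d10b at 0.872, Pcsk7 at 0.871 and Frmd8 at 0.869.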

How the data were processed

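RNA of the sorted macrophages (RNeasy micro kit) was made into libraries with the SMART-Seq mRNA LP kit, per the labels' protocols. The authors deposited whole-number counts for 57010 Ensembl genes, 1 column per library, with no scaling, as read from the values. FastQC and STAR 2.5 are named, per the submitters' processing notes. Those notes name the builds mm10 and GRCm39 without saying which one the counts used. The counting program and the treatment of strand and of multi-mapped reads are not given in the sources used here, so overlapping genes and near-identical copies may share reads. Names (52029 matched), lengths and positions came from GENCODE vM21 (GRCm38), which may not be the build of the counts.

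All 12 libraries were fitted in 1 edgeR 4.0.16 quasi-likelihood model (R 4.3.3) with TMM scaling and filterByExpr, which left 15943 genes. The F tests were two-sided, with Benjamini-Hochberg adjustment over all tested genes and a threshold of 0.05. The SE was taken as the size of the log2 fold change over the root of F, and 95% intervals use 8 residual degrees of freedom. The script was tested on simulated data. Alternatives were 8 other settings, among them DESeq2 1.42.0 and limma 3.58.1 voom, and 12 fits that each left out 1 library.

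All 10 genes are named, with Timd4 as the check of the knockout. Of each related list, up to 4 called genes with the smallest p and the 3 highest per length could be named, and the 5 genes most like Stfa3, Slpi and Ctla2a. Other named genes, and the genes in whose counts or ratios a pattern was noticed, were chosen after their values were seen. The genes and lists were chosen with earlier results of these data known. No molecular identifiers were used, and floors therefore cover counting error only. Values of 1 gene of the serpin list are not reported here.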

Additional observations from a re-analysis of the deposited data

How the results depend on the processing

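Called genes of the set were counted again under alternative runs. These were 20 for each comparison of 2 groups and 19 for the interaction, which has no fit to 2 groups only. The run with no filter on low counts also held Stfa1, Stfa2 and Stfa2l1. For Tim4KO against WT in naive cells and for the interaction, 0 were called in every fit. The challenge comparisons hold the response that was known when the genes were listed, so their counts are a description only. For Tim4KO against WT in ID8 cells, where 0 were called, the count was 2 with no filter on low counts (Stfa3 and Cstb) and 1 with DESeq2 (Cstb). It was 1 with the receptor background as a covariate (Cstb), and 0 to 1 with 1 library left out. The cause was not tested.

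Fold changes that turned direction did so only when 1 library was left out, and none of them was called. The ranges over these fits were -0.26 to 0.53 for Ctla2a, Tim4KO against WT in naive cells, -0.013 to 0.11 for Cst3 and -0.11 to 0.65 for Wfdc17 in ID8 cells, -0.64 to 0.11 for Wfdc17, ID8 against naive in WT, and -0.0097 to 0.46 for Slpi, ID8 against naive in Tim4KO.

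Pairing of samples by library number was not evident, though this check cannot exclude it. Deviations of same-numbered libraries correlated at -0.09 to 0.33, above 0.1 in 6 of 18 pairs, and 5 of 12 libraries correlated best with their own number. With the number as a replicate block, 0 genes were called between genotypes in naive and 0 in ID8 cells, 5 and 4 between ID8 and naive in WT and Tim4KO, and 0 in the interaction. Upper-quartile scaling moved the median of all genes in the challenge comparisons from -0.04 to -0.28 in WT and from -0.05 to -0.17 in Tim4KO. Depth limits Stfa1, Stfa2, Stfa2l1 and Ctla2b, and the naive levels of Stfa3 and Ctla2a, which rest on 10 or fewer reads per library.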
